A study of Drosophila melanogaster with 2 samples.

Results

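The 39 genes described here encode the proteins of the small (40S) subunit of the cytosolic ribosome in Drosophila melanogaster. They are the protein-coding genes of the dm6 annotation whose symbol is RpS followed by a digit, together with sta, which encodes the small-subunit protein SA, and they are 39 of 13945 protein-coding genes. Asciz binding was measured at them by chromatin immunoprecipitation and sequencing (ChIP-seq) with an antibody against GFP. The flies carried a transgene for Asciz, also called CG14962, with GFP fused to its C terminus, and the chromatin came from whole embryos of mixed sex aged 0 to 24 h. There was a single group of 2 libraries, biological replicates 1 and 3, each from its own biosample and each with technical replicate 1. No second condition and no untagged sample was analysed here, so every comparison is between genes, between promoters or between the 2 libraries. Whole embryos mix all cell types of these stages, so fewer cells with a bound promoter and weaker binding in each cell cannot be told apart. The tagged protein comes from a transgene, and the labels do not give its level relative to the native protein.

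Asciz is a zinc finger transcription factor, best known for activating ctp, which encodes the LC8 light chain of dynein. Ribosomal protein genes are among the most highly transcribed genes of growing cells, and in flies many of them start transcription within a run of pyrimidines called the TCT initiator, in place of the common initiator. Many of them are Minute loci, at which loss of a single copy slows growth and shortens the bristles. Several small-subunit proteins are encoded by a pair of genes, one used broadly and the other mainly in the germ line.

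The start regions below are shown because they carry the main contrasts of the data: strongly bound members, and pairs of related genes in which one promoter was bound and the other was not. Lower case marks the 100 bases before the annotated transcription start site (TSS), and capitals mark the first 30 transcribed bases, all from the release 6 assembly (dm6) and read 5′ to 3′ on the strand of the gene. For RpS4 and RpS15Aa the window is shorter, 10 bases before and 20 after the TSS, because that TSS lies within a longer annotated transcript. RpS27, RpS10b and RpS4 had the highest signals of the bound members, while RpS10a, RpS28a and RpS5b had no peak at the promoter. RpS15Aa, RpS5a and RpS5b were added after their values were seen.
RpS27, 3R:25247485-25247614, minus strand (bound): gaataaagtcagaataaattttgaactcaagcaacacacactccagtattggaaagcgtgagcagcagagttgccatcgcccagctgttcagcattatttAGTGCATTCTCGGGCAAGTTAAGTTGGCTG
RpS10b, X:19597931-19598060, plus strand (bound): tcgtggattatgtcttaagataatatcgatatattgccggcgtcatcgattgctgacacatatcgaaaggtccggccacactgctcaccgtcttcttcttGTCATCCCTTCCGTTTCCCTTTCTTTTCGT
RpS10a, 3R:27652660-27652789, plus strand (unbound): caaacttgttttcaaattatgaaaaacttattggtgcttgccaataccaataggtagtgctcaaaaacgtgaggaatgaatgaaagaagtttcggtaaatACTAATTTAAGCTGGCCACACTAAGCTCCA
RpS4, 3L:13041791-13041820, plus strand (bound): cccgcaaatcTGCCTTTTCCTTTTCCTGTT
RpS28b, X:9554523-9554652, plus strand (bound): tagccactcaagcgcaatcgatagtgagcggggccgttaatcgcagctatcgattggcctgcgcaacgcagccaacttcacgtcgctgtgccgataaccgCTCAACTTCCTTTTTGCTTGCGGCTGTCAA
RpS28a, 3R:30022619-30022748, minus strand (unbound): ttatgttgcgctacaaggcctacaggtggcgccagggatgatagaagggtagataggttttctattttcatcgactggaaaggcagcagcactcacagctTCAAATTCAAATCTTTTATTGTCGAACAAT
RpS5a, X:17148235-17148364, minus strand (bound): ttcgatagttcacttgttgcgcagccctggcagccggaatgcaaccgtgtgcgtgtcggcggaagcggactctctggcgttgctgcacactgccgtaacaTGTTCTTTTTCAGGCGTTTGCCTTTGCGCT
RpS5b, 3R:14901534-14901663, minus strand (unbound): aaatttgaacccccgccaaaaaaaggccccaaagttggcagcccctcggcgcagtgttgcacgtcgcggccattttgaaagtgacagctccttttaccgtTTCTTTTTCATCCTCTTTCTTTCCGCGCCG
RpS15Aa, X:13337619-13337648, minus strand (bound): ccttccgtttCCCTTTCTTTTCCCTTTTTC

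Runs of C and T stand at the start of several of these windows. In RpS15Aa, whose summit fell on the first transcribed base, and in RpS4, whose summit lay 18 bp downstream of the TSS, the 4 letters CTTT of the TCT initiator follow 2 and 3 bases after the TSS. The unbound RpS5b carries the same letters 2 bases after its TSS, and its bound partner RpS5a carries them 4 bases after. RpS27, with the highest signal, has none within 5 bp of the TSS shown, and carries CTTT at its other annotated TSS.

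A gene was called bound when any of its TSSs had, within 500 bp, the summit of a peak from the authors' optimal list. In that list are the 5085 peaks that passed the authors' irreproducible discovery rate, a score of how well a peak keeps its rank between replicates. By this rule 29 of the 39 small-subunit genes were bound (74.4%), beside 13.7% of all protein-coding genes. The large-subunit (RpL) genes were bound at nearly the same share, 41 of 54 (75.9%). Of the small-subunit genes of the mitochondrial ribosome, 4 of 26 were bound (15.4%), close to the share of all genes in that list. Genes are not replicates and the members were chosen with earlier results known, so no test was made over these lists.

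Both libraries showed a high share, and they differed in its size. Among the 5085 strongest regions of replicate 1, 22 of the 39 members were bound (56.4%), beside 12.8% of all protein-coding genes. Among the same number of regions of replicate 3, 29 members were bound (74.4%), beside 15.2%. In both libraries at once 22 members were bound (56.4%), compared with 33 of 54 RpL genes (61.1%) and 10.02% of all protein-coding genes. The mitochondrial small-subunit genes stood at 5 of 26 (19.2%) in replicate 1, 7 of 26 (26.9%) in replicate 3 and 4 of 26 (15.4%) in both. The 29 members bound in replicate 3 were the 29 bound in the optimal list. RpS13, RpS2, RpS20, RpS3, RpS9 and sta were among the 7 that did not reach the strongest regions of replicate 1. The 10 unbound members were the same in the optimal list and in both libraries.

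**Figure D1:**
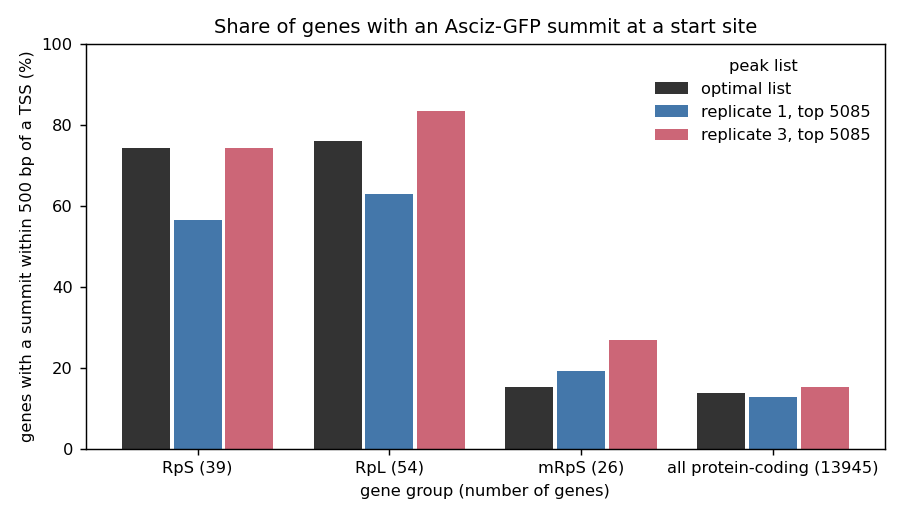
Bars give the percentage of genes in each group with an Asciz-GFP summit within 500 bp of a TSS, in the optimal list and in the 5085 strongest regions of each replicate. The small-subunit genes stand at 74.4%, 56.4% and 74.4%, the RpL genes at 75.9%, 63.0% and 83.3%, and all protein-coding genes between 12.8% and 15.2%.

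Peak height was described by the authors' signal value, which ranks peaks within a list and has no stated unit. Over the 29 bound members the median signal was 290, with quartiles of 192 and 359, and 21 of them (72.4%) lay above the median of the whole optimal list, 205. The 41 bound RpL genes had a median of 386 and 34 above that level (82.9%). Among the other 1887 bound protein-coding genes, which include the RpL genes, the median was 238 and 59.0% lay above it. None of the members came near ctp, whose peak had a signal of 26348. To set the libraries side by side, signals of each replicate list were also expressed relative to the median of the optimal peaks in that library, so that a relative signal of 1 is a typical peak. Replicate 1 gave a median of 1.28 over the 26 bound members with a region there, and replicate 3 one of 1.36 over all 29. These medians average 1.32 ± 0.0575 (SD, n = 2), a spread that also holds this change of genes. The bound RpL genes had 1.75 (36 genes) and 1.91 (41 genes), and all promoter peaks 1.09 (1772 peaks) and 1.10 (1898 peaks).

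RpS27, which encodes a zinc-binding protein of the small subunit, carried the strongest peak of the members. Its peak at 3R:25247348-25247679 had a signal of 921, rank 124 in the list. Relative to the typical peak it stood at 4.45 in replicate 1 and at 4.22 in replicate 3. RpS10b, for a protein of the beak of the subunit, had a signal of 638 (X:19597880-19598164, rank 307), with relative signals of 2.69 and 3.14 in replicates 1 and 3. RpS4 had 602 (3L:13041687-13041936, rank 354), with 2.53 in replicate 1 and 3.08 in replicate 3. These 3 promoters stood above all other members in both libraries.

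The next 4 members by signal encode proteins of the head of the subunit, an order of description and not a tested group. RpS25, which in yeast and human cells is needed for initiation on certain viral RNAs, had a signal of 502 (3R:11216223-11216361), and its relative signals were 2.004 and 2.36 in replicates 1 and 3. RpS28b, at the exit of the mRNA channel, had 432 (X:9554451-9554690), with 1.99 and 2.09. RpS19a, whose human counterpart is mutated in Diamond-Blackfan anaemia, had 426 (X:16637767-16637979), with 1.78 and 2.05. RpS18 had 424 (2R:20263890-20264092), with 1.84 and 2.05. Each was slightly higher in replicate 3 and well above the typical peak in both libraries.

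Other genes for head proteins are given by their signal. RpS5a, at the exit of the mRNA channel, had a signal of 316, and RpS20 had 297. RpS29, a zinc-binding protein, had 290 at 24 bp downstream of the TSS and a second summit of 132 at 169 bp downstream. RpS27A, made as a fusion with ubiquitin, had 285, RpS16 had 278, and RpS15 had 234. RpS12, which in Drosophila is needed for cells with lowered ribosomal protein gene dose to be outcompeted, had 181.

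Among the genes for the body and platform, RpS27 and RpS4 were followed by RpS21 with a signal of 359 (2L:2856015-2856151), and relative signals of 1.58 and 1.71 in replicates 1 and 3. RpS15Aa and RpS7 both had 342. RpS3A, the only member on chromosome 4, had 325, and its relative signal was 1.49 in both libraries. The peak of RpS23, for a protein of the decoding centre, had 304. RpS6, the substrate of S6 kinase, had 253, and sta had 258. The pair RpS14a and RpS14b had 188 and 182, and RpS13 had 178.

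RpS3, RpS2 and RpS9 had the lowest signals of the bound members. RpS3, for a protein at the entry of the mRNA channel, had a signal of 138 (rank 4547), with relative signals of 0.525 and 0.803 in replicates 1 and 3. RpS2 also had 138 (rank 4528), with 0.594 and 0.636. RpS9, for a protein that affects the accuracy of decoding, had 152 (rank 4000), with 0.436 and 0.829. All 3 lay below a typical peak in both libraries, and the lowest signal anywhere in the optimal list was 127.

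**Figure D2:**
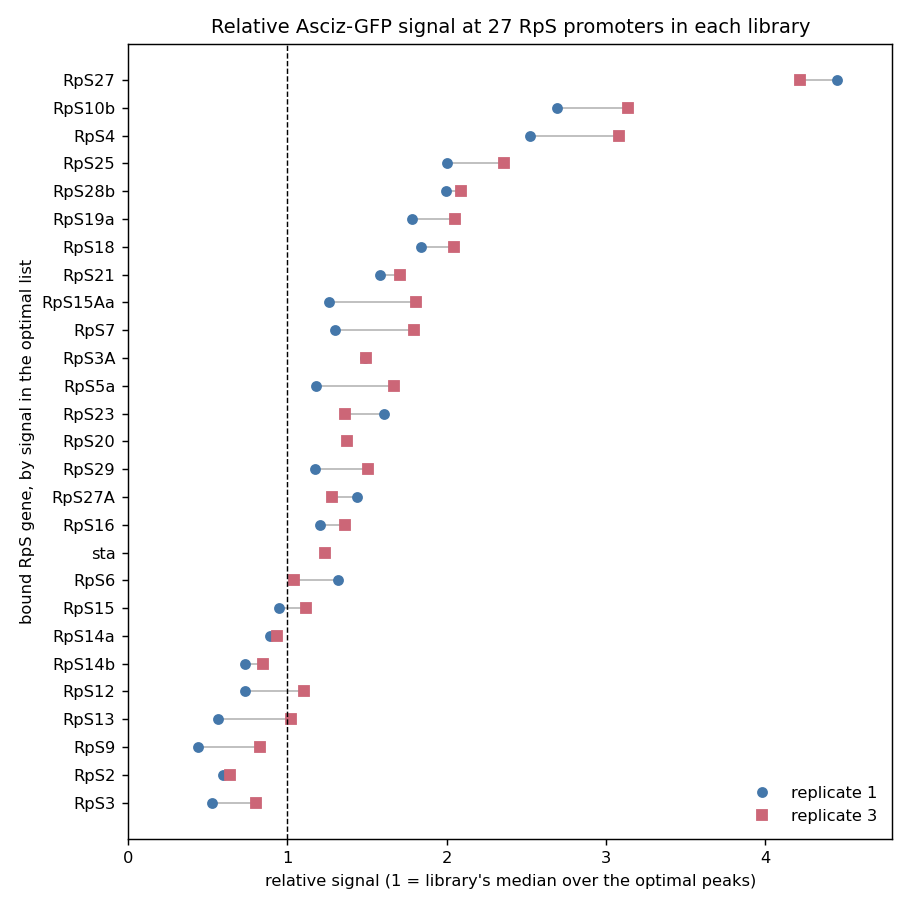
Points give the relative signal (1 is the median of the optimal peaks in that library) at 27 of the 29 bound small-subunit promoters, in order of signal in the optimal list, with replicate 1 as circles and replicate 3 as squares. RpS27 stands alone above 4 in both libraries, RpS3, RpS2 and RpS9 lie at the bottom, RpS20 and sta have a square only, and the circle of RpS3A is hidden behind its square.

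The libraries were compared at the 26 of 29 bound members with a region in both replicate lists. Both lists had a region at 1768 of all 1902 promoter peaks and at 4905 of all 5085 optimal peaks. Replicate 3 was higher at 22 of the 26 (84.6%), beside 55.9% of all 1768 promoter peaks with a region in both. The median log2 ratio of replicate 3 over replicate 1 was 0.22 for the members, 0.26 for the bound RpL genes and 0.05 for all promoter peaks. At single members it ran between -0.34 at RpS6 and 0.93 at RpS9, and none passed 1 in size, beside 6.5% of all promoter peaks. Among the members without a region in replicate 1 were RpS20 and sta, whose relative signals in replicate 3 were 1.38 and 1.23. With 2 libraries, the difference between them was not tested.

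The summits lay close to the start sites. The median position of the strongest summit was -2 bp from the nearest TSS of the gene (negative is upstream), with quartiles of -20 and 10 bp. Of the 29 summits, 25 (86.2%) lay within 50 bp of the TSS and 21 within 25 bp, while 17 were upstream, 11 downstream and 1, at RpS15Aa, on the TSS itself. The bound RpL genes were alike, with a median of -22 bp and 33 of 41 within 50 bp (80.5%). For the other 1887 bound protein-coding genes the median was -152 bp, the quartiles were -259 and -60 bp, and 199 (10.5%) lay within 50 bp. None of the 4 bound mitochondrial small-subunit genes had a summit within 50 bp, and their median was -188.5 bp.

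In each library the regions that overlapped the optimal peaks also had summits near the TSS. In replicate 1 the median was -10 bp over 26 members, with 22 within 50 bp, and in replicate 3 it was 6 bp over 29 members, with 23 within 50 bp. Between these overlapping regions a summit moved by a median of 17 bp and by at most 80 bp, a shift that the overlap itself limits. With the strongest summit within 500 bp taken from each relaxed list instead, that of RpS23 lay at -437 bp in replicate 1 and at 74 bp in replicate 3. Chromatin had been sheared to 200 to 800 bp, and 17 of the 29 peaks shared the width of 424 bp, which is also the median of the list. The other 12 were between 118 bp (RpS15Aa) and 332 bp wide (RpS27).

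**Figure D3:**
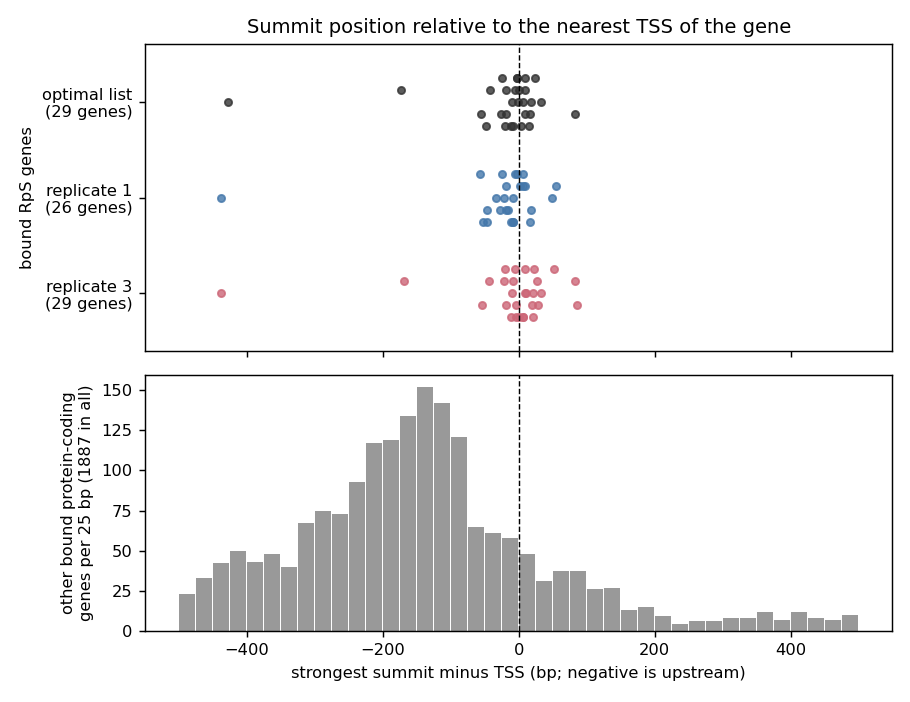
The upper panel gives the position of the strongest summit relative to the nearest TSS of each bound small-subunit gene (bp, negative is upstream) in the optimal list and in the overlapping region of each replicate, with points spread vertically for legibility, and the lower panel counts the other 1887 bound protein-coding genes in steps of 25 bp. The members gather around 0 with medians of -2, -10 and 6 bp, whereas the other genes centre upstream, at a median of -152 bp.

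Only RpS20 and RpS23 had their strongest summit more than 100 bp from the TSS. At RpS23 it lay at -427 bp, the farthest from a TSS among the bound members, and a weaker summit of signal 226 lay 14 bp downstream of the TSS. In replicate 1 the distant summit was the higher, with relative signals of 1.61 there and 0.807 near the TSS, whereas in replicate 3 the values were 1.36 and 1.51. At RpS20 the summit lay at -173 bp and was nearer to CG17271, a gene on the opposite strand, at -160 bp from its TSS. The nearest summit outside the 500 bp limit was that of RpS19b, at -885 bp with a signal of 353.

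Neighbouring genes shared some of these summits. For 12 of the 29 bound members the summit also lay within 500 bp of the TSS of another protein-coding gene, such as Nup37 at RpS27 (-136 bp from the TSS of Nup37), CG4820 at RpS25 (-229 bp) and Rok at RpS19a (-469 bp). In 28 of the 29 the member's own TSS was the nearest or tied for the nearest. The tie was at RpS27A, which shares its TSS with Ip259 on the same strand, 4 bp from the summit. No share over all promoter peaks is given beside these counts.

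Among the 10 unbound members were RpS10a, RpS15Ab, RpS19b, RpS24, RpS26, RpS28-like, RpS28a, RpS30 and RpS5b. Of the 10, 6 are second copies or relatives of a bound gene and 4 are single-copy genes. They were looked for in the relaxed lists of 30000 regions, which hold background as well as peaks. In the relaxed list made from both libraries together, 31 of the 39 members passed the same distance rule, beside 35.2% of all protein-coding genes. The relaxed list of replicate 1 held 29 members (74.4%), beside 32.7%, and that of replicate 3 held 33 (84.6%), beside 41.4%.

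Among the single-copy genes, RpS26, for a protein that contacts the mRNA upstream of the start codon at the exit channel, had a weak region in each library. Its rank was 5491 in replicate 1 (at -13 bp) and 8515 in replicate 3 (22 bp downstream), and the list of both libraries together had no summit there. RpS30, made as a fusion with a ubiquitin-like protein, had a region 31 bp downstream of a TSS in the list of both libraries (rank 11809). It ranked 11295 in replicate 1 and 14543 in replicate 3. RpS24 had a region in replicate 3 alone (rank 19252, 317 bp downstream of the TSS).

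RpS10a was the second copy with the strongest weak region. It ranked 8177 in the list of both libraries, 8081 in replicate 1 and 9429 in replicate 3, where the summits lay at -145, -2 and -99 bp. RpS15Ab, RpS19b, RpS28-like, RpS28a and RpS5b had no summit in reach of a TSS in any list. Their nearest optimal summits were 13.2 kb (RpS15Ab), 0.885 kb (RpS19b), 5.50 kb (RpS28-like), 23.6 kb (RpS28a) and 7.45 kb away (RpS5b).

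Of 6 pairs of genes whose symbols differ by a last lower-case letter, 5 had one bound and one unbound promoter. The bound genes were RpS10b, RpS15Aa, RpS19a, RpS28b and RpS5a, all on the X chromosome, and the unbound ones were RpS10a, RpS19b, RpS28a and RpS5b on 3R and RpS15Ab on 2R. Their coding sequences were similar, at 74.3% identity for RpS10b and RpS10a, 98.2% for RpS15Aa and RpS15Ab, 67.2% for RpS19a and RpS19b, 76.9% for RpS28b and RpS28a, and 78.2% for RpS5a and RpS5b. The 300 bp promoters (250 bp before to 50 bp after the TSS) aligned at 46.0% to 49.1% identity, and no promoter pair shared a run longer than 10 bp. No unrelated promoters are set beside them, so the promoter identities here and below have no baseline. RpS10a, RpS15Ab and RpS28a consist of a single exon, while RpS10b has 3 exons and RpS15Aa and RpS28b have 2. RpS5b and RpS19b are known for their use in the germ line in Drosophila.

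RpS14a and RpS14b, which lie in tandem on the X chromosome with 220 bp between them and encode a platform protein, were the pair with both promoters bound. Their start sites are 1156 bp apart and their summits 1107 bp apart, at 7 bp from the TSS of RpS14a and at -42 bp from that of RpS14b. RpS14a had relative signals of 0.892 and 0.936 in replicates 1 and 3, and RpS14b had 0.732 and 0.847. Their coding sequences are 97.8% identical and their promoters 50.5%, with a longest shared run of 11 bp. How the authors placed reads that match both copies is not given in the sources used here, so the balance between the pair is uncertain within coding sequence. The same limit holds for RpS15Aa and the unbound RpS15Ab, at 98.2% coding identity.

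Gene structure was set beside that of other genes. Bound members had a median of 3 exons and 1487 bp, none had a single exon, and 12 of the 29 hosted 41 small nucleolar RNA (snoRNA) genes between them. Unbound members had a median of 2 exons and 848 bp, 3 of the 10 had a single exon, and 1 hosted snoRNA genes. Over all protein-coding genes the medians were 3 exons and 2166 bp and 16.2% had a single exon, over the other bound protein-coding genes they were 4 exons and 4093 bp, and 16 of the 54 RpL genes hosted snoRNA genes. By chromosome, 9 of 9 members on X were bound, 4 of 4 on 3L, 1 of 1 on chromosome 4, 4 of 6 on 2L, 7 of 12 on 3R and 4 of 7 on 2R. Another TSS on the opposite strand within 500 bp was found at 12 of the 29 bound and 3 of the 10 unbound members. These counts are small and were not tested. Those by chromosome, of snoRNA hosts and of opposite TSSs have no share over all protein-coding genes beside them.

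The members' summits were poorer in A and T than those of most bound promoters. In the 101 bp centred on the summit, A and T made up 53.5% ± 8.08 (SD over 29 promoters) at the members, lower than the 60.2% ± 6.20 in windows 300 bp to either side. The summit window was richer in A and T than its flanks at 6 of the 29 members (20.7%). Over all 1902 promoter peaks, which include the members, the summit windows held 66.0% ± 9.57 against 56.8% ± 7.32 in the flanks, and 74.2% of summits were the richer. The bound RpL genes resembled the small-subunit genes, with 56.2% ± 8.38 at the summit against 59.0% ± 5.97 in the flanks, and 12 of 41 richer at the summit.

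Distance to the TSS moved with this composition, and its part in the difference between the members and other promoters was not tested. At the 191 peaks within 50 bp of a TSS of a protein-coding gene and with no cytosolic ribosomal protein gene in the window, the summit windows held 57.8% ± 9.33 against 58.3% ± 7.39 in the flanks, and 45.5% were richer at the summit. At the 1333 promoter peaks more than 100 bp from every TSS the value was 67.9% ± 8.57. Windows centred on the TSS itself held 52.4% ± 5.78 at the bound members, 58.7% ± 8.11 at the unbound members and 56.7% ± 8.58 over all protein-coding genes. RpS5a had the lowest share of the members at its summit (37.6%), and RpS20, one of the few with a distant summit, the highest (72.3%).

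**Figure D4:**
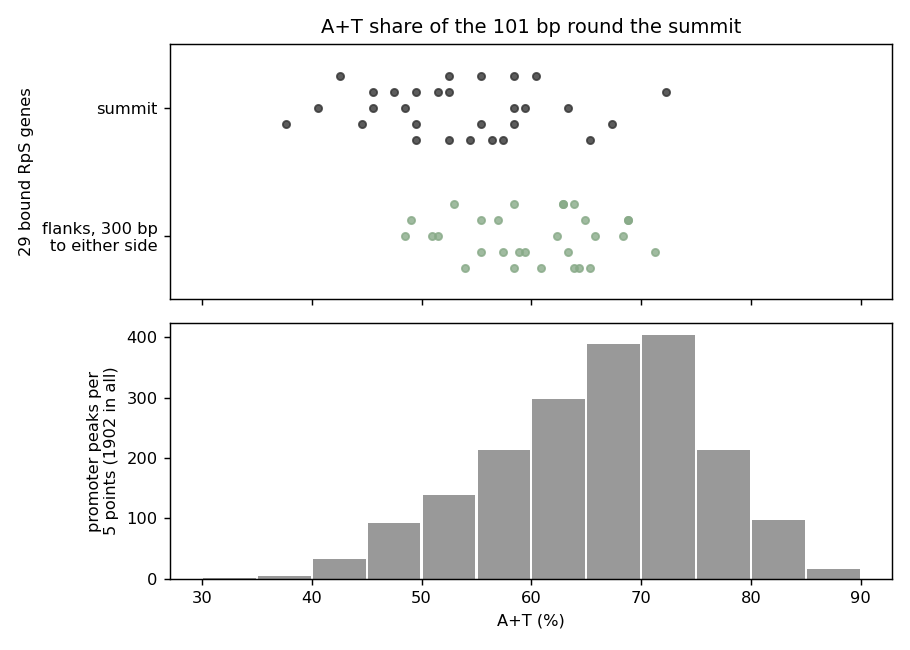
The upper panel gives the A+T share (%) of the 101 bp at the summit and of the flanks 300 bp to either side for the 29 bound small-subunit genes, with points spread vertically for legibility, and the lower panel counts all 1902 promoter peaks by the A+T share at the summit in steps of 5 points. The members average 53.5% at the summit and 60.2% in the flanks, and the promoter peaks 66.0%.

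The initiator and 4 further promoter elements were searched for. CTTT started within 5 bp of an annotated TSS, on the strand of the gene, at 21 of the 29 bound members (72.4%) and at 4 of the 10 unbound ones, RpS24, RpS26, RpS30 and RpS5b. Over all members this was 25 of 39 (64.1%), compared with 61.1% of RpL genes and 8.07% of all protein-coding genes. On the opposite strand it was found at 1 of the 29 bound members (RpS13) and at 6.60% of all protein-coding genes. Counting only the TSS of the canonical transcript, 14 bound and 3 unbound members had it, beside 5.72% of all protein-coding genes. At the TSS nearest to the summit it stood 2 to 5 bp downstream, with a median of 4 bp, in 14 of the 29 bound members. There it started exactly at the TSS in 0 of the 29. At any annotated TSS it did so in 1 bound member, RpS7, beside 0.810% of all protein-coding genes.

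Other elements were searched on both strands in the 300 bp promoter of the canonical transcript. TATCGATA, the element bound by Dref, was present at 10 of the 29 bound members (34.5%), among them RpS10b, where it can be read in the sequence above, RpS25 and RpS7. It was present at 3 of the 10 unbound members, RpS15Ab, RpS24 and RpS30, at 27.8% of RpL genes and at 8.94% of all protein-coding genes. GGTCACAC, the core of the element bound by M1BP, was present at 5 bound members (among them RpS15, RpS23, RpS9 and sta), at no unbound member, at 16.7% of RpL genes and at 7.54% of all genes. TATAAA, the TATA box, was present at 15 of the 29 bound and 4 of the 10 unbound members and at 45.3% of all genes. CACGTG, the E-box, was in none of the 39 promoters, whereas 11 of 54 RpL promoters (20.4%) and 4.26% of all promoters held it. None of these motifs contains another, and a match describes these letters and not a bound site.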

How the data were processed

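ChIP-seq against GFP was analysed from 2 libraries of 1 group. The deposited peak lists give the signal that the authors' peak caller assigned to each region, and its scale differs between lists. The optimal list holds 5085 peaks in dm6, and the relaxed lists of each replicate and of both libraries together hold 30000 regions each, peaks and background. The choice of aligner and peak caller is not given in the sources used here, and the control alignment and the dm3 lists were not used here. The lists carry no read counts, so the depth of the libraries is unknown and intervals for counting error are not given.

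Genes and TSSs came from Ensembl release 115 (BDGP 6.54) and sequence from the release 6 assembly, on chromosomes 2L, 2R, 3L, 3R, 4 and X, with 1-based coordinates. Each gene took the strongest summit within 500 bp of any TSS. Relative signal was the strongest overlapping region (at least 1 bp) of a replicate list scaled to the median of the optimal peaks in that library. Coding sequences and 300 bp promoters were aligned globally with Biopython 1.88, and Python 3.11.15, numpy 2.4.6 and matplotlib 3.10.9 were used. The calculation was tested on simulated data. There is no second group to compare over samples, no test was made, and all comparisons are counts, medians and ranges.

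The members, comparison lists and motifs were chosen with earlier results of these data known. Values were given in full for the 8 strongest and 3 weakest bound members, every pair, every bound member whose summit lay nearer to another gene or had a region in one library only, and the unbound members, and sequences for the 3 strongest and for 2 pairs outside 2R. Results for some single members are not reported here by name, and all counts include them. Alternatives varied the window, the TSS set, the peak list, the overlap, the scaling, the CTTT tolerance and the library left out.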

Additional observations from a re-analysis of the deposited data

How the results depend on the processing

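The number of bound members was 29 with windows of 200 bp, with the outermost 5' end of each gene, with any overlap of the peak interval and with RefSeq gene models, and 30 with 1000 bp, 28 with each summit given to its nearest TSS, 21 among the peaks above the median signal of the optimal list and 31 in the whole relaxed list. The RpL count ran between 34 and 44 over the same settings. The share of all protein-coding genes was 8.52% with 200 bp, 17.0% with 1000 bp, 11.5% with the outermost 5' end and 10.9% with the nearest TSS. It was 15.3% with any overlap of the peak interval and 13.8% with RefSeq gene models. Among the peaks above the median signal it was 8.14%, and in the whole relaxed list 35.2%. Leaving out a library gave 22 to 29 bound members, 34 to 45 bound RpL genes, 12.8% to 15.2% of all protein-coding genes and a median position of -10 to 7 bp. The median position was between -8 and 7 bp under all other settings, and the median signal between 285 and 293. Scaled to promoter peaks, the median relative signal was 1.18 in replicate 1 and 1.23 in replicate 3. Regions in both replicate lists were found for 26 of 29 bound members at each overlap rule and for 22 among the strongest regions. With an overlap of at least 1 bp they were found for 1768 of all 1902 promoter peaks. CTTT started exactly at an annotated TSS in 2 members (5.13%, beside 0.810% of all protein-coding genes). It started within 20 bp in 32 (82.1%, beside 26.7%) and near the canonical TSS in 17 (43.6%, beside 5.72%), so its count depends on the tolerance. The RefSeq models, the nearest summit for the position and the canonical TSS were chosen after seeing the data. No paired analysis was possible because there is 1 group. The number of libraries, 2, and the unknown depth limit the precision of single promoter values.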

Other observations

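CTTT at the start site was also counted in genes that encode no cytosolic ribosomal protein. Of the 1067 such genes with CTTT within 5 bp of a TSS, 211 were bound (19.8%), compared with 1635 of 12785 without it (12.8%). Among the bound genes with it, 25 (11.8%) had the summit within 50 bp of the TSS, compared with 141 (8.62%) of those without it. Over all bound small-subunit genes, with or without CTTT, the share within 50 bp was 86.2%, and no test was made. CTTT and binding were both counted over every annotated TSS, so a gene with more TSSs has more chances at each. At the canonical TSS alone, CTTT was present at 6.47% of the 1887 other bound protein-coding genes, which include the RpL genes. Over all protein-coding genes the share there was 5.72%. Over any TSS these shares were 12.6% and 8.07%.

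Pyrimidines were counted in the 8 bases that begin 2 before the TSS of the canonical transcript, a stretch that can include CTTT. At least 7 of the 8 were pyrimidines in 10 of the 29 bound members (34.5%) and in 3 of the 10 unbound members, compared with 3.21% of all protein-coding genes. The first transcribed base there was C in 11 of the 29 bound members (37.9%) and in none of the 10 unbound members, compared with 24.5% of all protein-coding genes.

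The snoRNA genes were spread unevenly over the hosts. RpS5a held 14 of them, RpS7 held 7 and RpS16 held 5. These 3 hosts were bound, as were 74.4% of all members, and 1 host with 2 snoRNA genes was unbound.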
